A study of Homo sapiens with 22 samples.

Results

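The genes described here are 10 established transcriptional targets of p53, CDKN1A, MDM2, GDF15, BBC3, TP53I3, SESN1, FAS, BAX, TP53INP1 and ZMAT3, which were taken by name from a table of 60675 genes. They were measured by RNA sequencing in HT1080, a human fibrosarcoma cell line, in 22 libraries of 6 groups. The groups were unmodified cells (WT, 4 libraries), 3 lines in which a histidine in a catalytic domain of a lysine deacetylase (KDAC) was changed to alanine at the endogenous locus (KDAC6H216A, KDAC6H611A and KDAC8H143A, 4 libraries each), and WT cells kept for 2 days with 1 µM Tubastatin A, a KDAC6 inhibitor, or 5 µM PCI-34051, a KDAC8 inhibitor (3 libraries each). KDAC6 and KDAC8 are the products of HDAC6 and HDAC8, and KDAC6 has a pair of catalytic domains, one hit by each KDAC6 mutation. By the study's methods KDAC6H216A was a pool of independent clonal lines while KDAC6H611A and KDAC8H143A each came from a single colony, so that in those 2 lines the mutation and the clone cannot be told apart. No vehicle-treated group is among the labels, and WT served as the control for both inhibitors.

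p53 is a transcription factor that is held at a low level by its own target MDM2, a ubiquitin ligase, and that accumulates after DNA damage and other stress. Its targets arrest the cell cycle, above all through CDKN1A (p21), start apoptosis through BBC3 (PUMA), BAX and FAS, and adjust metabolism and growth through genes such as SESN1 and TP53I3. p53 itself is acetylated, and deacetylases of more than 1 class are known to act on it.

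p53 binds pairs of a 10-base motif built around a core of C, A or T, A or T, and G. A search of the 2500 bases on either side of each gene's start (GRCh38, GENCODE canonical transcript) for 2 adjoining motifs with both cores intact and at most 2 mismatches outside them found 1 site in each of 4 of the 10 genes, against 2.26% of the 20044 windows of protein-coding genes. They are shown in the direction of the gene, with the cores in capitals, because they match this form of the p53 motif pair. Pairs with bases between the motifs or with a changed core were not searched for.
CDKN1A, chr6:36676449-36676468, plus strand, offset −2265 bases from the start: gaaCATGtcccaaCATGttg
GDF15, chr19:18385308-18385327, plus strand, offset −850 bases: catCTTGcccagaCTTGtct
FAS, chr10:88991309-88991328, plus strand, intron, offset 511 bases: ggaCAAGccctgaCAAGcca
ZMAT3, chr3:179070188-179070207, minus strand, intron, offset 1602 bases: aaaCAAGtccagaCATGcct
The ZMAT3 site had 0 mismatches outside the cores, and the other 3 had 2 each. The absence of a match in the other 6 genes says only that these letters do not occur in these windows.

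The promoters of CDKN1A and GDF15 are also given, since these were the 2 genes that were higher than in WT in 4 of the 5 comparisons below before correction for GC content. After correction CDKN1A in KDAC8H143A was not called and had a negative estimate, and neither gene was called in KDAC6H611A. The sequences are the 250 bases before the RefSeq start (GRCh38.p14, plus strand), with GC boxes (GGGCGG, or its reverse complement CCGCCC) and the TATA box motif TATAAA in capitals.
CDKN1A, chr6:36678464-36678713: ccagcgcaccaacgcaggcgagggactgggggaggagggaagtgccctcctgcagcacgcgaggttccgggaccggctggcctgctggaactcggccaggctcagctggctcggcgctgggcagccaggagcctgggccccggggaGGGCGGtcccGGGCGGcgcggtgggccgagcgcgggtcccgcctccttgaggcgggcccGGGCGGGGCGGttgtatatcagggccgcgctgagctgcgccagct
GDF15, chr19:18385908-18386157: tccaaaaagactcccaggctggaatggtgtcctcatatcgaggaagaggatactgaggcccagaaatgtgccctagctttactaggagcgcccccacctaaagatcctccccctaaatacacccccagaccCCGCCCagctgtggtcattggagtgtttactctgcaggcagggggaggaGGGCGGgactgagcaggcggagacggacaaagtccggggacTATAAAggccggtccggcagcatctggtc
The CDKN1A stretch held 4 GC boxes, 2 of them overlapping by 1 base, and the GDF15 stretch 2 GC boxes and 1 TATAAA. Among the 35116 RefSeq promoters of 300 bases, which run 50 bases past the start, 45.0% held a GC box on either strand and 11.5% TATAAA on either strand.

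Total counts per library ran from 5248953 to 17170473 in WT cells and the 3 mutant lines and from 24315766 to 29862665 in the treated cells. The mitochondrial rRNA genes took 20.8% to 23.9% of the counts in WT, 13.1% to 15.1% in KDAC6H216A other than replicate 1 (0.195%), and 20.98% to 38.0% in KDAC6H611A other than replicate 4 (0.173%). In KDAC8H143A and in the treated cells they took at most 0.0259%. Both this share and the total count of every library in these groups lay outside the WT range. Their part in the results therefore cannot be told apart from that of the line or the treatment. In KDAC6H216A the share of every library lay outside the WT range too. The total counts of its replicates 2 to 4, 10948459 to 11737835, lay above the highest in WT, 8998474. The part of the share in that line's results cannot be told apart from that of the line. Without replicate 1 this holds for the total count as well. HDAC6 stood at 4.72 to 6.10 CPM (counts scaled to a common library size) in KDAC6H216A against 9.11 to 15.03 CPM in WT, and at 9.29 to 14.3 CPM in KDAC6H611A; HDAC8 ranged from 10.7 to 13.5 CPM in KDAC8H143A against 10.4 to 12.02 CPM in WT. A point mutation leaves the transcript in place, so these levels do not check the labels. Of 6 mesenchymal markers, 5 or 6 reached 1 CPM in every group, while EPCAM, CDH1 and ESRP1 of the 4 epithelial markers and all of the 4 haematopoietic markers stayed under it. The 6 mesenchymal markers summed to 5263 to 5725 CPM in WT, 4023 to 5912 in KDAC6H216A, 3209 to 4973 in KDAC6H611A, 3145 to 4142 in KDAC8H143A and 6326 to 7084 in the treated cells, and the part of these differences in the results was not tested; CDH5 and VWF of the 3 endothelial markers reached 1 CPM in KDAC8H143A only.

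In WT cells every one of the 10 genes was expressed. Per length, taking the canonical transcript, GDF15 (112 CPM per kilobase), BAX (87.1), CDKN1A (61.3) and MDM2 (53.8) stood highest, ZMAT3 followed at 19.5, and SESN1 was lowest at 3.18 CPM per kilobase. All further levels are CPM scaled by TMM (trimmed mean of M values) on the scale of the WT libraries, and differences are log2 fold changes of the edgeR fit of the 2 groups compared, called at an adjusted p below 0.01. The labels number the replicates without saying whether they were separate cultures, and the study's methods call them biological replicates. The p-values measure the spread between these libraries.

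**Figure D1:**
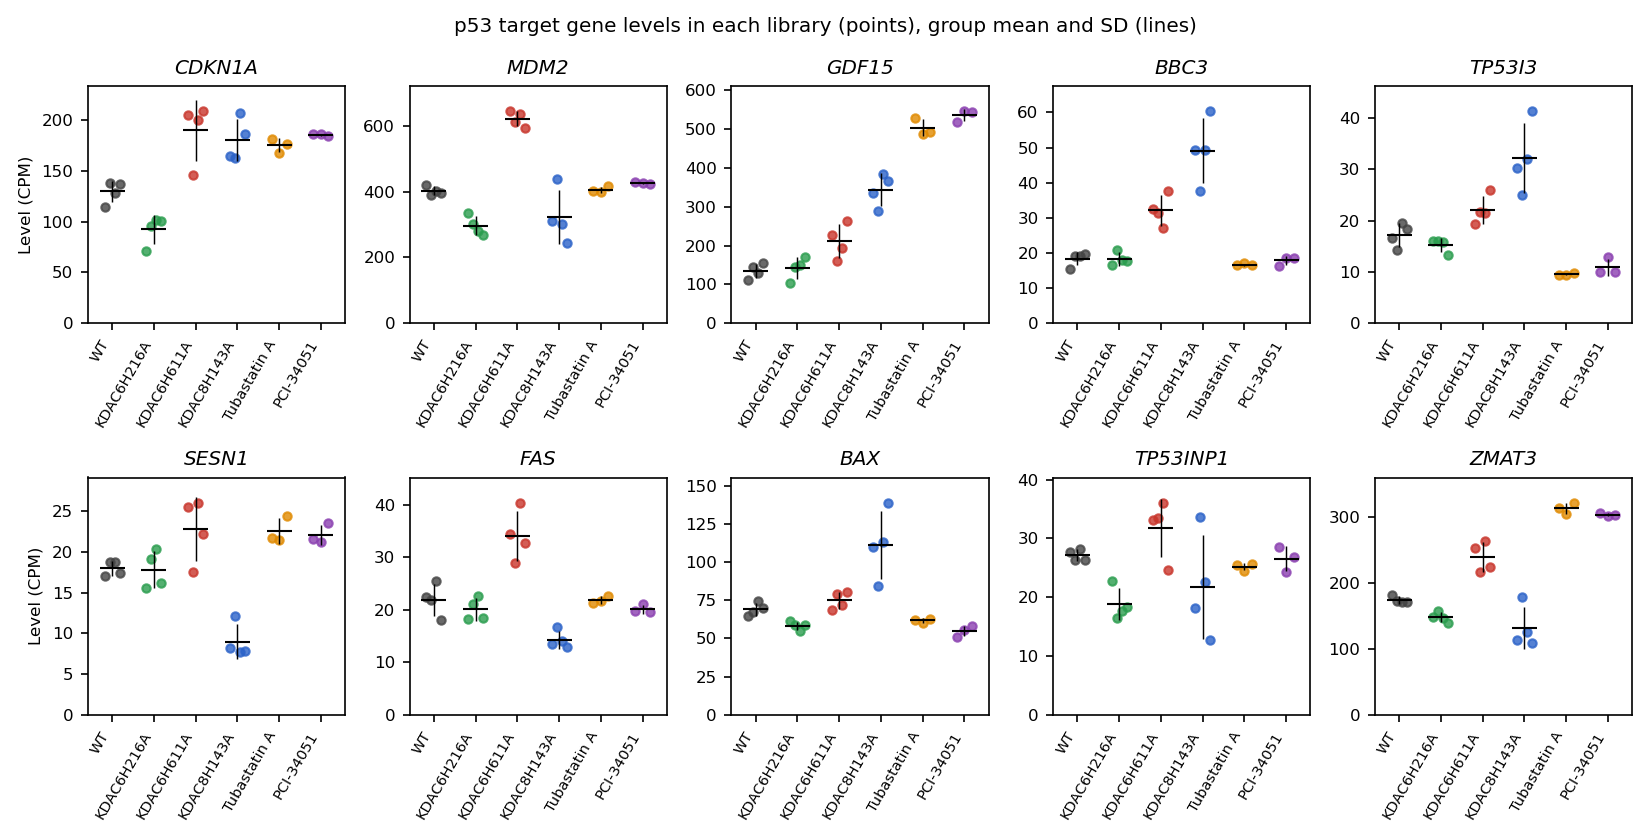
Level of each p53 target gene in CPM (linear axis from 0) in every library of the 6 groups, with points for libraries, horizontal lines for group means and vertical lines for the SD. CDKN1A and MDM2 lie below WT in all KDAC6H216A libraries and above WT in all KDAC6H611A libraries, and GDF15 is highest in the treated cells.

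The KDAC6H611A line, which carries the mutation in the second catalytic domain of KDAC6, expressed 6 of the 10 genes at a higher level than WT and none at a lower level. The higher genes were BBC3, GDF15, FAS, MDM2, CDKN1A and ZMAT3, by 1.38- to 1.73-fold. Over all 14725 genes tested, 12.3% passed, 6.08% higher and 6.24% lower, and the median log2 fold change of the 10 genes was 0.51 against 0.03 over all genes. MDM2, the ligase that degrades p53, measured 422, 391, 403 and 396 CPM in the WT libraries and 645, 613, 638 and 596 CPM in KDAC6H611A. The groups did not overlap, and the log2 fold change was 0.63 ± 0.10 (SE, edgeR adjusted p = 0.000699).

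BBC3, whose product PUMA frees BAX and BAK from their inhibitors, stood at 15.5, 19.2, 19.1 and 19.7 CPM in WT and 32.4, 31.4, 27.0 and 37.7 CPM in KDAC6H611A. Every mutant library was above every WT library (log2 fold change 0.79 ± 0.13, edgeR adjusted p = 0.000692). BBC3 and MDM2 were the 2 genes that stayed called in all 8 fits that left out 1 library.

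CDKN1A, the inhibitor of cyclin-dependent kinases, stood at 115, 138, 129 and 138 CPM in WT and 205, 146, 200 and 209 CPM in KDAC6H611A, so the groups did not overlap although replicate 2 came close to WT. The log2 fold change was 0.55 ± 0.13 (edgeR adjusted p = 0.00746), and 0.64 (adjusted p = 1.50e-05) without replicate 2, the library with the highest share of mitochondrial rRNA, whose part in the result was not tested. Each of the other 7 omissions of a library ended the call. GDF15, a stress cytokine of the TGF-β superfamily, measured 226, 161, 194 and 264 CPM against 112, 144, 129 and 154 CPM in WT, a log2 fold change of 0.65 ± 0.15 (edgeR adjusted p = 0.00898).

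FAS, the receptor for FAS ligand, stood at 34.5, 28.8, 40.4 and 32.7 CPM in KDAC6H611A, above the WT range of 18.1 to 25.5 CPM (log2 fold change 0.64 ± 0.13, edgeR adjusted p = 0.00386). ZMAT3, which encodes an RNA-binding zinc finger protein, stood at 217 to 264 CPM against 171 to 183 CPM (0.46 ± 0.10, edgeR adjusted p = 0.00517). The 4 genes that were not called all had a positive estimate, from 0.12 for BAX to 0.36 for TP53I3, and their ranges overlapped those of WT. The count of called genes fell to 2 or 3 without any 1 of the WT libraries or KDAC6H611A replicate 1, and lay between 4 and 7 without 1 of the others. After GC and length correction 4 were called, where 5.34% of all genes were higher, MDM2, BBC3, FAS and ZMAT3, with CDKN1A at 0.39 (edgeR adjusted p = 0.0438) and GDF15 at 0.48 (0.0251). With all genes scaled by the total count none of the 10 genes was called, while their log2 fold changes ran from 0.14 to 0.83.

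The KDAC6H216A line, mutated in the first catalytic domain, had none of the 10 genes past the threshold in edgeR, where 0.834% of 14500 genes passed, 0.214% higher and 0.621% lower (1946 genes had an unadjusted p under 0.05). Replicate 1 decided this result: it stood apart from the other 3 libraries in its share of mitochondrial rRNA, and without it 5 of the 10 genes were lower than in WT, where 13.8% of genes were, while the calls over all genes went from 121 to 3813. Those 5 were MDM2, TP53INP1, CDKN1A, BAX and ZMAT3, and in all 5 every KDAC6H216A library, replicate 1 included, lay below every WT library. With all libraries, BAX came to −0.11 and ZMAT3 to −0.18 after GC and length correction, and to −0.08 and −0.06 under total count scaling. In the same order of scales MDM2 came to −0.40 and −0.27, TP53INP1 to −0.50 and −0.36, and CDKN1A to −0.41 and −0.33. None of the 10 genes was called on either scale. DESeq2 called 3 of those 5 genes on all libraries, where it called 367 of 14500 genes, 217 of them lower. The share of all genes whose libraries did not overlap was not counted.

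MDM2 measured 334, 302, 281 and 269 CPM in KDAC6H216A, against 391 to 422 CPM in WT. The log2 fold change was −0.44 ± 0.09 (edgeR adjusted p = 0.0276) with all libraries and −0.50 (adjusted p = 7.95e-07) without replicate 1. TP53INP1, an adaptor of autophagy and apoptosis, measured 22.8, 16.5, 17.7 and 18.3 CPM against 26.3 to 28.2 CPM in WT (−0.53 ± 0.11, edgeR adjusted p = 0.0309; without replicate 1, −0.63 and 8.09e-06).

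CDKN1A stood at 70.7, 96.1, 102 and 101 CPM in KDAC6H216A, and replicate 1 was the lowest of all 22 libraries. Its log2 fold change was −0.49 ± 0.12 (edgeR adjusted p = 0.0701), and −0.39 (adjusted p = 8.97e-05) without that library. GDF15, BBC3, TP53I3, SESN1 and FAS overlapped WT, with estimates from −0.17 to 0.07.

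Set directly against each other, a comparison added after the values against WT had been seen, the 2 KDAC6 lines differed in 6 of the 10 genes, all higher in KDAC6H611A, or in 4 after GC and length correction (3.99% of all genes), without CDKN1A (0.77, edgeR adjusted p = 0.0159) and BBC3 (0.50, 0.0161). Of 14961 genes 9.93% passed, 4.61% higher and 5.31% lower in KDAC6H611A. MDM2 differed by 1.04 ± 0.11 on the log2 scale (edgeR adjusted p = 0.00023), CDKN1A by 1.01 ± 0.16 (0.00171), BBC3 by 0.78 ± 0.13 (0.00229), TP53INP1 by 0.73 ± 0.15 (0.00703), FAS by 0.74 ± 0.13 (0.00306) and ZMAT3 by 0.67 ± 0.11 (0.00197). In none of these 6 did the libraries of the lines overlap. TP53I3 and BAX did not overlap either, though they were not called. The share of all genes without overlap between the lines was not counted. GDF15 did not pass the test (0.54 ± 0.19, edgeR adjusted p = 0.0654). The median over the 10 genes was 0.70, against 0.01 over all genes. MDM2 alone was called in every one of the 8 fits that left out a library, which called 1 gene without KDAC6H611A replicate 1, 2 and 3 without KDAC6H216A replicates 4 and 3, 3 without KDAC6H611A replicate 4, and 4 to 6 otherwise. In addition, total count scaling left none past the threshold, with MDM2 at 0.91 (adjusted p = 0.0279) and CDKN1A at 0.92 (0.028).

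**Figure D2:**
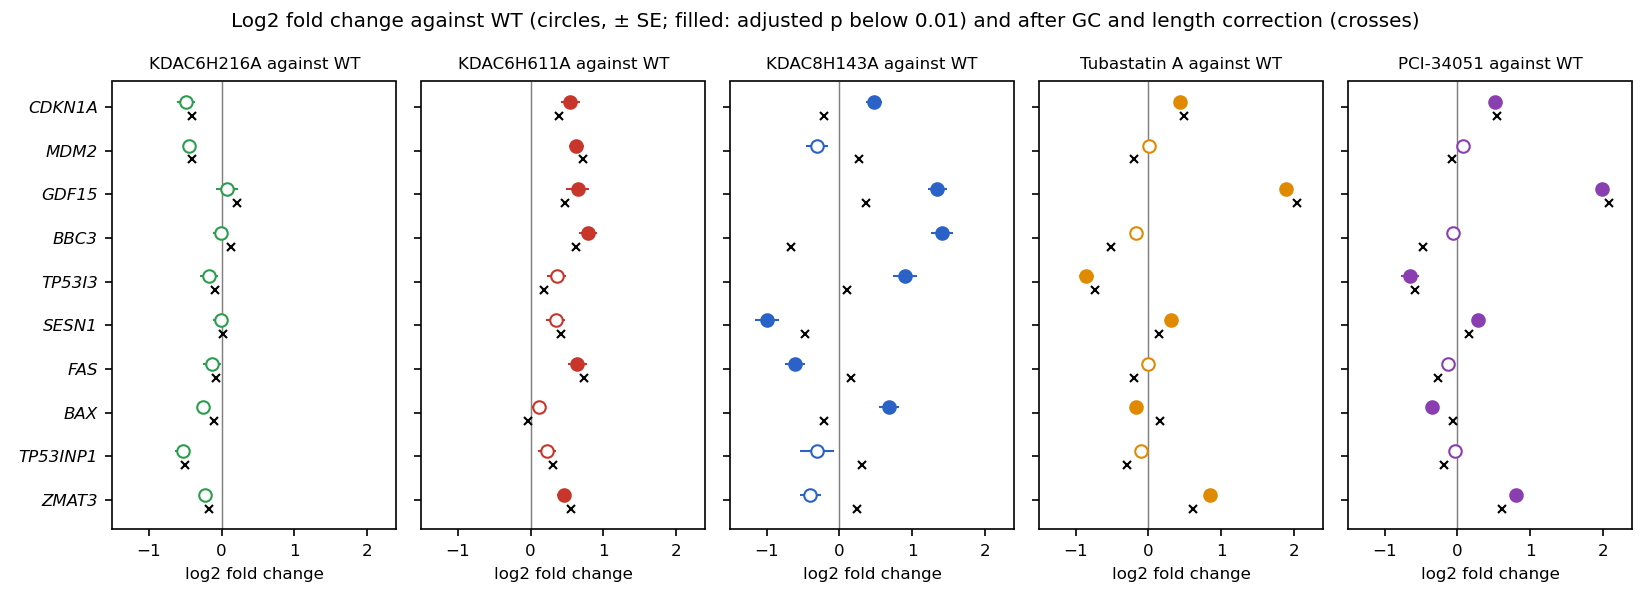
Log2 fold change of each gene against WT in the 5 comparisons (circles, horizontal lines ± SE, filled where the edgeR adjusted p is below 0.01) and the same after correction for GC content and length (crosses). KDAC6H611A has all 10 circles to the right of 0, both inhibitors share GDF15 and ZMAT3 as the largest rises, and crosses depart most from circles in KDAC8H143A.

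In KDAC8H143A, 7 of the 10 genes passed the test, 5 higher and 2 lower, in a comparison in which 58.5% of 16101 genes passed, 31.6% higher and 26.9% lower. The higher genes were BBC3 and GDF15, followed by TP53I3, BAX and CDKN1A, and the lower were SESN1 and FAS. BBC3 rose from 18.4 ± 1.9 CPM in WT to 49.1 ± 9.2 CPM (SD, n = 4 each), with libraries at 49.2, 37.7, 49.2 and 60.3 CPM, a log2 fold change of 1.40 ± 0.15 (edgeR adjusted p = 1.04e-05). GDF15 stood at 334, 289, 385 and 366 CPM, all above the highest WT library (1.35 ± 0.13, adjusted p = 5.79e-06).

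BAX, the pore-forming effector of mitochondrial apoptosis, measured 110, 84.2, 113 and 139 CPM against 64.6 to 74.5 CPM in WT (log2 fold change 0.68 ± 0.14, edgeR adjusted p = 0.000937). TP53I3, a quinone oxidoreductase, measured 25.0 to 41.3 CPM against 14.3 to 19.6 CPM (0.90 ± 0.16, edgeR adjusted p = 0.00041). SESN1, which restrains mTORC1, stood at 8.18, 12.2, 7.71 and 7.81 CPM, below the WT range of 17.1 to 18.8 CPM (−0.998 ± 0.16, edgeR adjusted p = 0.000211). FAS lay at 12.9 to 16.8 CPM against 18.1 to 25.5 CPM (−0.62 ± 0.14, edgeR adjusted p = 0.00176).

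These differences followed the base composition of the transcripts. The 5 genes that were higher have transcripts of 57.3% to 69.7% GC, and the 5 others, whose estimates were all negative, 38.0% to 40.6%. Over all 15897 genes with a GC value, the log2 fold change in KDAC8H143A had a Pearson r of 0.52 with GC content, against −0.09 to 0.15 in the other 4 comparisons with WT. With GC content and length corrected over all genes, 3 of the 10 genes passed the test, 1 higher and 2 lower, beside 21.5% and 27.3% of 16101 genes. GDF15 stayed higher at 0.36 (edgeR adjusted p = 0.008) and SESN1 lower at −0.47 (0.00463), while BBC3 turned to −0.66 (0.000254). CDKN1A, BAX and FAS changed sign as well and were no longer called, at −0.22, −0.22 and 0.15, and TP53I3 came to 0.10. The call of CDKN1A before correction was also lost without WT replicate 1 or 3 or KDAC8H143A replicate 3. Of the 7 calls in this line only those of GDF15 and SESN1 therefore held in their direction on both scales. Whether base composition or the line set the uncorrected values was not tested.

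**Figure D3:**
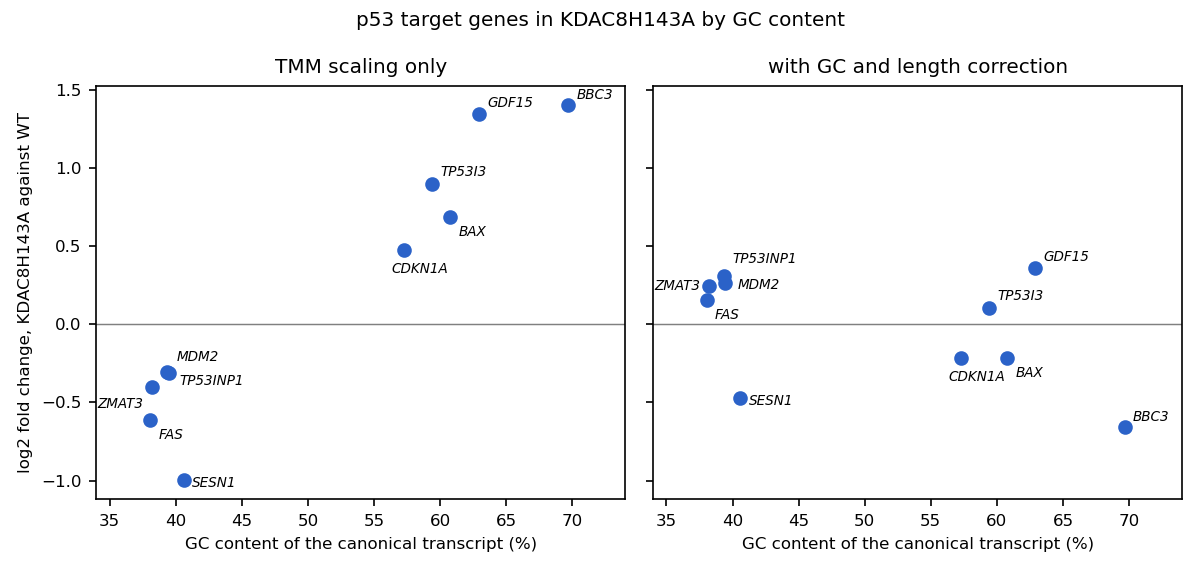
Log2 fold change of each gene in KDAC8H143A against WT (vertical axis) by GC content of its canonical transcript in percent (horizontal axis), before (left) and after (right) correction for GC content and length over all genes. Before correction the 5 genes above 57% GC are positive and the 5 below 41% negative; afterwards GDF15 and SESN1 keep their sign past the threshold and BBC3 has turned negative.

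KDAC8H143A replicate 2 differed from the other 3 libraries in several of these genes. MDM2 stood at 439 CPM in it against 245 to 311 CPM, ZMAT3 at 179 against 109 to 126 CPM, and TP53INP1 at 33.6 against 12.7 to 22.6 CPM. Without that library these 3 genes were lower than in WT too, at −0.56, −0.65 and −0.67 (edgeR adjusted p = 0.000124, 1.30e-05 and 0.00117), and all 10 genes passed, 5 higher and 5 lower, beside 32.7% and 32.5% of 16137 genes. After the GC and length correction of all 4 libraries, MDM2 (0.27), TP53INP1 (0.31) and ZMAT3 (0.24) had positive estimates that were not called.

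In WT cells kept with Tubastatin A, GDF15 and ZMAT3 rose most, CDKN1A and SESN1 rose by less, and TP53I3 and BAX fell. These 6 of 10 stand beside 57.9% of 15246 genes called, 29.3% higher and 28.6% lower, and the median over the 10 genes was 0.00, as over all genes. Depth and mitochondrial rRNA share also set the treated libraries apart from WT, and neither can be told apart from the treatment. GDF15 measured 528, 488 and 494 CPM, against 112 to 154 CPM in WT, 3.71-fold more (log2 fold change 1.89 ± 0.07, edgeR adjusted p = 4.04e-14). ZMAT3 measured 315, 306 and 322 CPM, against 171 to 183 CPM (0.85 ± 0.05, edgeR adjusted p = 5.26e-12).

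CDKN1A stood at 181, 168 and 177 CPM, all above the highest WT library at 138 CPM (0.43 ± 0.06, edgeR adjusted p = 1.92e-06). TP53I3 fell to 9.40, 9.41 and 9.78 CPM, below the WT range of 14.3 to 19.6 CPM (−0.85 ± 0.10, edgeR adjusted p = 3.81e-07). SESN1 differed by 0.31 ± 0.08 (0.00141) and BAX by −0.17 ± 0.05 (0.00476). MDM2, at 400 to 417 CPM, overlapped WT and had a log2 fold change of 0.01 ± 0.04 (edgeR adjusted p = 0.808).

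The 5 µM PCI-34051 libraries gave the same 6 calls in the same directions, beside 51.1% of 15346 genes, 25.5% higher and 25.6% lower; these values share their WT libraries with those of Tubastatin A, and the doses differ. GDF15 measured 519, 545 and 544 CPM (log2 fold change 1.99 ± 0.08, edgeR adjusted p = 1.65e-12), ZMAT3 306, 302 and 304 CPM (0.80 ± 0.05, 8.94e-10) and CDKN1A 186, 186 and 185 CPM (0.51 ± 0.06, 1.64e-06). TP53I3 stood at 10.0, 12.8 and 9.94 CPM (−0.65 ± 0.12, 0.000173), BAX at 51.0, 55.4 and 57.9 CPM (−0.34 ± 0.06, 0.000115), and SESN1 differed by 0.29 ± 0.08 (0.00386). MDM2 had a log2 fold change of 0.08 ± 0.05 (edgeR adjusted p = 0.184).

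Scaling by the total count raised the log2 fold changes in the treated cells, and the median of all genes came to 0.35 with Tubastatin A and 0.38 with PCI-34051. On that scale 8 genes were higher and 1 lower with Tubastatin A, beside 51.9% and 12.1% of all genes. With PCI-34051 7 were higher and none lower, beside 51.4% and 9.62%. BAX then turned to 0.18 with Tubastatin A and 0.04 with PCI-34051, so the direction of BAX depends on the scale. GDF15, ZMAT3, CDKN1A and SESN1 were higher on both. TP53I3 stayed lower on both, at −0.50 and −0.26 by total count, the latter not called (edgeR adjusted p = 0.0642). Under the GC and length correction SESN1 was not called with either inhibitor, and BAX turned to 0.16 with Tubastatin A (adjusted p = 0.0068) and came to −0.06 with PCI-34051, not called (0.413). The same correction made BBC3 a called decrease with both, at −0.51 (edgeR adjusted p = 9.49e-06) and −0.47 (0.000147), and MDM2 one with Tubastatin A (−0.19, 0.000341), as it did TP53INP1 (−0.30, 0.000341). The Tubastatin A call of BAX was lost in 6 of the 7 fits without 1 library (all but that without WT replicate 1), and the PCI-34051 call of SESN1 without WT replicate 1 or 4 or PCI-34051 replicate 3.

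Tubastatin A was also compared directly with KDAC6H611A, and PCI-34051 with KDAC8H143A; Tubastatin A was not compared with KDAC6H216A. Tubastatin A treated cells had 1 gene higher and 4 lower than KDAC6H611A, where 34.9% of 16608 genes passed, 17.7% higher and 17.2% lower. GDF15 was higher by 1.28 ± 0.16, and TP53I3 (−1.18 ± 0.12), BBC3 (−0.92 ± 0.12), FAS (−0.62 ± 0.12) and MDM2 (−0.58 ± 0.12) were lower, with edgeR adjusted p values from 3.67e-05 to 0.00208. CDKN1A differed by −0.09 ± 0.14 (edgeR adjusted p = 0.631) and its ranges overlapped. Without KDAC6H611A replicate 1 or Tubastatin A replicate 1 or 2 the calls of MDM2 and FAS were lost, as was that of MDM2 without Tubastatin A replicate 3, and under total count scaling GDF15 and TP53I3 alone were called.

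PCI-34051 treated cells had 4 genes higher and 3 lower than KDAC8H143A, where 58.2% of 18540 genes passed, 30.3% higher and 27.8% lower. SESN1 (1.47 ± 0.18), ZMAT3 (1.39 ± 0.18), GDF15 (0.83 ± 0.12) and FAS (0.67 ± 0.13) were higher, and TP53I3 (−1.36 ± 0.18), BBC3 (−1.26 ± 0.15) and BAX (−0.83 ± 0.15) lower, with edgeR adjusted p values from 4.49e-05 to 0.00108. The log2 fold change of all genes had a Pearson r of −0.45 with GC content here. With GC content and length corrected, GDF15, SESN1, ZMAT3 and TP53I3 kept their direction and call, whereas BAX turned to 0.34 (adjusted p = 0.00869), FAS to −0.40 (0.00653) and BBC3 to 0.05 (0.722). CDKN1A, not called before, came to 0.78 (4.31e-05).

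Over the 6 groups the 10 genes did not share an order. GDF15 ranged most, from a mean of 135 CPM in WT to 536 CPM with PCI-34051; KDAC8H143A lay above KDAC6H611A and below both inhibitors without overlap, while WT and KDAC6H216A overlapped, as did the 2 inhibitors. For CDKN1A the order ran from KDAC6H216A over WT to the other 4 groups at means of 175 to 190 CPM, each of which overlapped its neighbour. MDM2 stood apart in KDAC6H611A, at a mean of 623 CPM with the next group, PCI-34051, at 427 CPM and no overlap. BBC3 and BAX had KDAC8H143A on top without overlap with the next group, KDAC6H611A. FAS and SESN1 had KDAC8H143A at the bottom without overlap, and FAS had KDAC6H611A at the top without overlap. The places of KDAC8H143A in these orders are on the scale without GC correction. The sign of BBC3, BAX, CDKN1A and FAS against WT turned with that correction. Each other group was scaled with WT alone, so places and overlaps among these groups depend on that scaling. For CDKN1A, PCI-34051 over KDAC8H143A was 0.04 on the log2 scale by mean CPM and 0.23 in the direct fit.

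Across the 22 libraries, log2 CPM of BBC3 and BAX had a Pearson r of 0.91, BBC3 and TP53I3 0.89, and MDM2 and TP53INP1 0.86, whereas SESN1 and BAX had −0.81. The genes of each positive pair lie on the same side of the GC split seen in KDAC8H143A, and the libraries share groups and depth, so these are descriptions. Of 9467 genes with a mean of at least 10 CPM, those most like CDKN1A were MOB3A (r 0.95), SH3PXD2B (0.93) and ZER1 (0.91), and those most like MDM2 were NAPEPLD (0.93), MMP1 (0.90) and MYPN (0.88). MMP1, interstitial collagenase, had a mean of 3.27 CPM in KDAC6H216A, 52.6 CPM in WT and 220 CPM in KDAC6H611A. In KDAC8H143A its mean was 3.04 CPM.

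MDM4, the partner of MDM2 in restraining p53, rose by 0.20 ± 0.05 with Tubastatin A and 0.41 ± 0.05 with PCI-34051 (edgeR adjusted p = 0.00214 and 1.28e-06). CDKN2A, which encodes the MDM2 antagonist p14ARF as well as p16, was listed at 0 in all 22 libraries. Of 22 tested genes of a list on the regulation of p53, 1 was higher and 1 lower in KDAC6H611A, beside 6.08% and 6.24% of all genes. HIPK2, a p53 kinase, rose by 0.57 ± 0.11 (edgeR adjusted p = 0.0025). EP300, a p53 acetyltransferase, fell by 0.92 on the log2 scale, from 103 to 54.0 CPM (edgeR adjusted p = 1.5e-05). In KDAC8H143A 3 were higher and 7 lower, 2 and 9 after GC and length correction, and 7 and 2 under total count scaling, which turned the balance. Over all genes 31.6% were higher and 26.9% lower there, or 21.5% and 27.3% after the correction. With each inhibitor 7 were higher and 7 lower. The shares over all genes were 29.3% and 28.6% with Tubastatin A and 25.5% and 25.6% with PCI-34051. Under total count scaling 14 were higher and 0 lower with each. Neither the GC correction nor total count scaling kept HIPK2 past the threshold in KDAC6H611A.

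Of a list of 27 other p53 targets, in KDAC6H611A 4 were higher and 3 lower, with a median log2 fold change of 0.21: PLK3 (0.76 ± 0.12) and BTG2, an antiproliferative gene (0.72 ± 0.11), were higher, and SPATA18 (−2.11 ± 0.34) and PMAIP1, which encodes the BH3-only protein NOXA (−0.92 ± 0.13), were lower. With Tubastatin A 12 were higher and 5 lower, and with PCI-34051 13 and 3; under total count scaling the counts were 18 and 1 with each, and after GC and length correction 12 and 6, and 12 and 8. The shares over all genes are those given above for each comparison. RRM2B, a ribonucleotide reductase subunit, rose by 1.24 ± 0.05 and 1.09 ± 0.06 on the log2 scale, while AEN, an exonuclease, fell by 0.67 and 0.68. In KDAC8H143A 10 were higher and 10 lower, led by PIDD1 (2.41 ± 0.30, or 0.91 after GC and length correction) and GADD45A (1.69 ± 0.23) on the one side and PERP (−2.12 ± 0.23) and RPS27L (−1.53 ± 0.24) on the other.

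Of the cell cycle genes that are repressed downstream of p21 through the DREAM complex, none of 20 was called in KDAC6H216A, 7 were lower in KDAC6H611A, 14 lower and 2 higher in KDAC8H143A (15 and 1 after GC and length correction, which left CDKN1A uncalled there), 18 lower with Tubastatin A and all 20 lower with PCI-34051. The medians of the 20 were 0.16, −0.41, −0.78, −0.43 and −0.62 on the log2 scale, against −0.01 to 0.08 over all genes. In KDAC6H216A 0.834% of all genes passed, and the count of this list without its replicate 1 is not given here. In KDAC6H611A BUB1, a spindle checkpoint kinase, fell from 79.4 to 40.8 CPM (−0.96 ± 0.11, edgeR adjusted p = 5.7e-05), and with PCI-34051 CENPF, a kinetochore protein, fell from 479 to 209 CPM (−1.20 ± 0.06, edgeR adjusted p = 1.2e-11). In KDAC8H143A MYBL2 and PLK1 were higher, at 1.37 ± 0.17 and 0.58 ± 0.11, and at 0.51 and −0.11 after GC and length correction, when PLK1 was not called. Total count scaling left 1 of the 20 lower in KDAC6H611A, 7 lower and 2 higher with Tubastatin A and 9 lower with PCI-34051. Among 4 tested CDK inhibitors other than CDKN1A, 1 was higher in each mutant line and 3 with each treatment, and none was lower. Over all genes 0.214% were higher in KDAC6H216A, 6.08% in KDAC6H611A and 31.6% in KDAC8H143A. With Tubastatin A the share was 29.3%, and with PCI-34051 25.5%. After GC and length correction 1 was higher and 1 lower in KDAC8H143A, and under total count scaling 0 were called in KDAC6H611A. CDKN2C (p18) was higher in KDAC8H143A (0.62 ± 0.12) and with Tubastatin A (0.75 ± 0.07), CDKN2D (p19) with Tubastatin A (0.69 ± 0.16) and PCI-34051 (0.61 ± 0.17), and CDKN1B (p27) was higher in KDAC6H216A (0.59 ± 0.08), in KDAC6H611A (0.70 ± 0.12) and with PCI-34051 (0.73 ± 0.08).

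**Figure D4:**
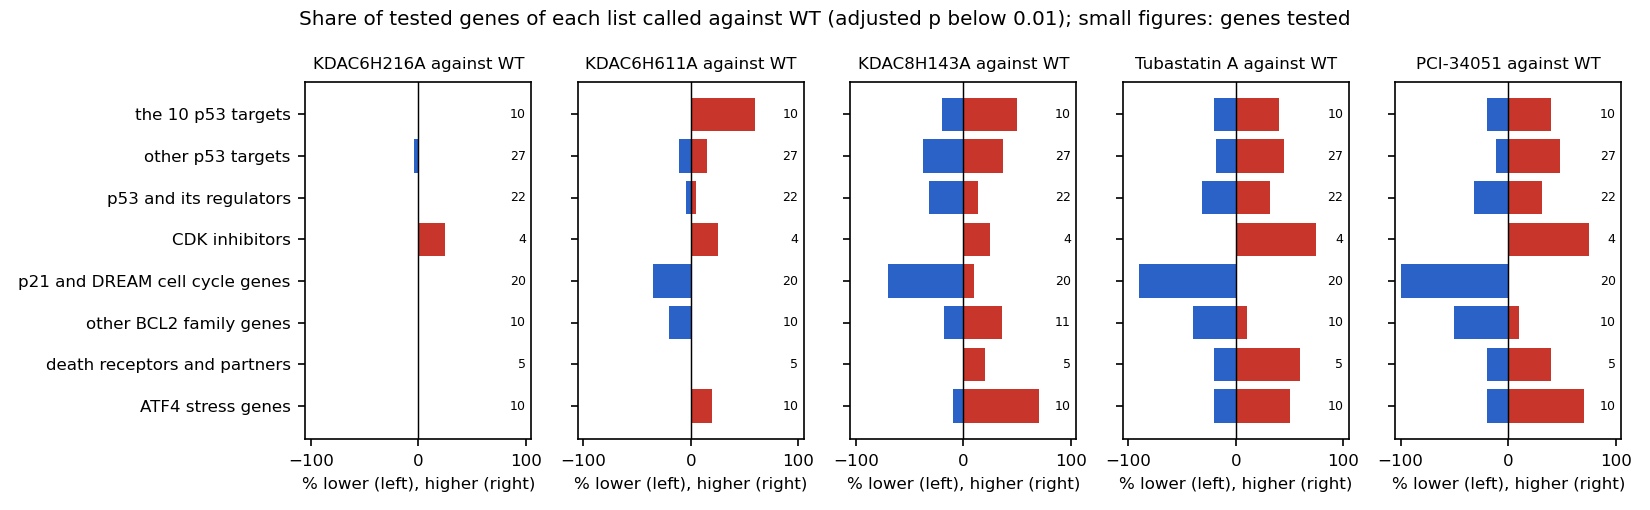
Share of the tested genes of each list called higher (red, right) or lower (blue, left) than WT in each comparison, in percent, with the number tested at the right edge. The cell cycle genes lie to the left in the 4 comparisons other than KDAC6H216A, and the 10 p53 targets lie wholly to the right in KDAC6H611A. In KDAC6H216A 0.834% of all genes were called.

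Among other members of the BCL2 family, BCL2, the antiapoptotic founder of the family, fell from 32.1 ± 0.68 CPM in WT to 13.4 ± 2.3 CPM in KDAC6H611A (log2 fold change −1.26 ± 0.13, edgeR adjusted p = 2.3e-05), and by 0.86 with Tubastatin A and 1.09 with PCI-34051. BCL2L1 fell by 0.64 and 0.85 with the 2 inhibitors. BMF, a BH3-only gene, rose from 1.28 ± 0.36 CPM to 5.41 ± 1.1 CPM in KDAC8H143A, 4.07 ± 0.54 CPM with Tubastatin A and 5.45 ± 0.59 CPM with PCI-34051 (SD). Of 10 tested genes of the list, 2 were lower in KDAC6H611A, beside 6.24% of all genes. With Tubastatin A 1 was higher and 4 were lower, beside 29.3% and 28.6%. With PCI-34051 1 was higher and 5 were lower, beside 25.5% and 25.6%. Of 11 in KDAC8H143A, 4 were higher and 2 lower, beside 31.6% and 26.9%. Under total count scaling 3 were higher and 2 lower with Tubastatin A, 1 and 2 with PCI-34051, and 5 and 0 in KDAC8H143A. BCL2L1 then came to −0.29 and −0.46 with the inhibitors.

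Of the death receptors and their partners none of 5 tested genes was called in either KDAC6 line and 1 in KDAC8H143A, TNFRSF10C (0.84 ± 0.19), which came to 0.17 and lost its call after GC and length correction, when 1 gene was higher and 2 lower; under total count scaling 3 were higher. TNFRSF1A, the TNF receptor, rose by 0.90 ± 0.05 and 1.02 ± 0.05 with Tubastatin A and PCI-34051. GDF15 and some other p53 targets are also induced by the ATF4 stress pathway, and 10 genes of that pathway were therefore set beside them. In KDAC6H611A 2 were higher, DDIT4 (1.95 ± 0.15, edgeR adjusted p = 3.2e-06) and ASNS (0.58 ± 0.12). In KDAC8H143A 7 were higher and 1 lower (4 and 0 after GC and length correction), with Tubastatin A 5 and 2, and with PCI-34051 7 and 2. DDIT4, an inhibitor of mTORC1, rose by 1.49 ± 0.16 in KDAC8H143A (0.75 after that correction) and by 1.24 ± 0.07 and 1.14 ± 0.08 with the inhibitors. ATF4 itself had log2 fold changes of −0.46 and −0.60 with them, and of −0.11 and −0.21 under total count scaling. On that scale 8 of the 10 genes were higher and 0 lower with Tubastatin A, and 8 and 1 with PCI-34051. None of the 10 was called in KDAC6H216A, where 0.834% of all genes passed. Under total count scaling 1 of them was higher there, beside 358 of 14500 genes. Counts of these lists without KDAC6H216A replicate 1 are not given here. All-gene shares for the other comparisons are those given above.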

How the data were processed

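RNA was sequenced from 22 HT1080 libraries. The authors removed rRNA, trimmed paired reads with Trimmomatic 0.39, aligned them with Bowtie2 2.4.5 to GRCh38 and estimated counts per gene with RSEM 1.3.3. The deposited table holds these expected counts, without scaling for depth or length. The annotation release and the strand setting are not given in the sources used here. Antisense or overlapping genes (CPM at MDM2, FAM228B at TP53I3, ACTA2 and STAMBPL1 at FAS, NDUFAF6 at TP53INP1) therefore cannot be told apart from these genes in shared exons.

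Expected counts were rounded. Each comparison was a fit of its 2 groups in edgeR 4.0.16 (TMM, filterByExpr, glmQLFit, glmQLFTest; R 4.3.3) with Benjamini-Hochberg adjustment over all genes tested and the authors' threshold of 0.01. The SE is the log2 fold change over the root of the F statistic. Alternatives were DESeq2 1.42.0, a threshold of 0.05, total count scaling, keeping all genes, a minimum of 10 counts per library, all groups in one fit, coding genes alone, a smooth GC and length correction (mgcv 1.9.3), the replicate block and leaving out each library. Calls with simulated fold changes were checked beforehand. Genes, coordinates, lengths and GC content came from GENCODE release 44 (56558 of 60675 genes matched) and promoters from RefSeq (9 of the 10 genes matched). Total counts from 5248953 to 29862665 put 3 counts at 0.0792 to 0.582 CPM. The named genes were the 10 targets, MDM4, HDAC6, HDAC8, at most 2 called genes per list and direction with the largest change, and the 3 genes most like CDKN1A and MDM2; CDKN2A, the markers and overlapping genes were named besides, and some genes that the rule names are not reported here. The 10 genes and the lists were chosen with earlier results of these data known.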

Additional observations from a re-analysis of the deposited data

Results flagged for a closer look

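In groups of 4 libraries, 1 library stood far from the other 3 in 5 of 40 pairs of gene and group (Dixon's criterion at 95%), and chance flags about 1 in 20 groups. CDKN1A stood at 145.7 CPM in KDAC6H611A replicate 2 against 200 to 209 CPM in the others. BBC3 stood at 15.5 CPM in WT replicate 1 against 19.1 to 19.7 CPM, and ZMAT3 at 182.6 CPM in the same library against 171 to 173 CPM. TP53I3 stood at 13.2 CPM in KDAC6H216A replicate 4 against 15.8 to 16.1 CPM. SESN1 stood at 12.2 CPM in KDAC8H143A replicate 2 against 7.71 to 8.18 CPM. Groups of 3 libraries were not tested.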

How the results depend on the processing

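Counts of the 10 genes called that moved by more than 1.5 times are given here. KDAC6H216A had 0 genes by edgeR at 0.01, 2 at an adjusted p of 0.05 and 3 by DESeq2, and 0 to 5 without 1 library. KDAC6H611A had 6 genes, 0 under total count scaling and 3 with all groups in one fit, and 2 to 7 without 1 library. KDAC8H143A had 7 genes, 3 with GC and length correction, and 3 with that correction and the replicate block. Tubastatin A against KDAC6H611A had 5 genes, 2 under total count scaling, and 3 to 6 without 1 library. KDAC6H611A against KDAC6H216A had 6 genes, 0 under total count scaling and 3 with the block and the correction, and 1 to 6 without 1 library. Of 1400 values of single genes under an alternative, 1207 kept their direction and side of the threshold, 119 lost and 50 gained a call, and 24 changed sign where either value was called; 69 further sign changes between uncalled values are counted among the 1207.

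The sign changes came under GC and length correction, given first alone and then with the replicate block, and under total count scaling. In KDAC8H143A CDKN1A came to −0.22 and −0.22, BBC3 to −0.66 and −0.66, FAS to 0.15 and 0.16, and BAX to −0.22 and −0.21. With Tubastatin A MDM2 came to −0.19 and −0.19 and BAX to 0.16 and 0.15. For PCI-34051 against KDAC8H143A FAS came to −0.40 and −0.36, BAX to 0.34 and 0.39, BBC3 to 0.0528 without the block, and TP53INP1 to −0.59 with it. Under total count scaling FAS (0.34), BAX (0.18) and TP53INP1 (0.24) changed sign with Tubastatin A, and BBC3 (0.33), BAX (0.0448) and TP53INP1 (0.35) with PCI-34051. The cause was not tested.

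Same-numbered libraries did not pair: in no comparison was every correlation of their deviations over 0.1 (lowest −0.23, highest 0.37), and the replicate block left 73 of 80 values as they were and ended 7 calls. The treated libraries were deeper than the others and also more alike among replicates, and the part of depth in the smaller standard errors was not tested.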
